A study of Mus musculus with 7 samples.

Results

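Slc12a1, Umod, Bsnd, Cldn10, Cldn16, Cldn19, Casr, Egf and Ptger3 are 9 genes that mark, or work in, the thick ascending limb of the loop of Henle, and their messenger RNA was compared between kidneys of mice without the lamin B receptor (LBR) and a kidney of a wild-type (WT) littermate. The genes were chosen by symbol, and all 9 of 9 symbols were found among the 24328 symbols of the gene tables. The animals were 3 LBR-null mice (4001, 4002 and 4007), which carried the ic-J allele on both copies of Lbr (Lbric-J/ic-J), a loss of function, and 1 WT mouse (4009, Lbr+/+), all on C57BL/6J and 4 weeks old. The allele is carried in every cell from conception, so the kidneys lacked functional LBR throughout development. RNA came from the pulverized right kidney, and mice 4001, 4007 and 4009 gave 2 poly(A)-selected libraries each and mouse 4002 gave 1. LBR is a protein of the inner nuclear membrane that tethers heterochromatin, and the study used these mice to ask whether disturbed nuclear architecture leads to misexpression of genes that lack a CpG island. Because there was 1 WT mouse, the spread between animals could be measured only among LBR-null mice, and an exact permutation test over 3 mice against 1 cannot give a one-sided p below 0.25.

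The thick ascending limb reabsorbs salt without water. The cotransporter NKCC2, encoded by Slc12a1, takes sodium, potassium and chloride up from the tubule fluid, and barttin, the product of Bsnd, is needed for chloride to leave on the blood side. The resulting voltage drives cations between the cells, through tight junction pores of claudins: Cldn10 encodes a claudin whose pores pass sodium, and the products of Cldn16 and Cldn19 act together in the passage of magnesium and calcium. The calcium-sensing receptor (Casr) and the prostaglandin E2 receptor EP3 (Ptger3) restrain this transport. Umod encodes uromodulin, the most abundant protein of normal urine, and Egf encodes the precursor of epidermal growth factor, which is made in the distal part of the nephron, the thick ascending limb included. In bulk kidney RNA, fewer cells of a type and less RNA per cell cannot be told apart.

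All 9 genes were detected in all 7 libraries. The values are read counts divided by a size factor for the library, and are called normalized counts here. The fewest reads behind any value were 206, for Cldn16, and the most were 87213, for Egf. To set genes beside each other, the normalized count was divided by the length of the gene's exons in the mm9 annotation. In the WT mouse Umod was highest on this per-kilobase scale, at 15532 normalized counts per kb. Egf (5510 per kb) and Slc12a1 (5339 per kb) followed, with a gap between them that could not be set against a spread between WT animals. Cldn10 stood at 1762 per kb, Bsnd at 877 per kb, Cldn19 at 437 per kb, Cldn16 at 351 per kb, Ptger3 at 194 per kb and Casr at 66.6 per kb. In LBR-null mice the levels of the 3 leading genes overlapped between animals: Umod had 15717 ± 9576 per kb, Egf 10185 ± 4653 per kb and Slc12a1 9717 ± 2814 per kb (SD, n = 3 mice). Within each LBR-null library, Umod was still the highest of these 3 genes per kb.

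The study sorted genes by whether a CpG island lies at their promoter, so the sequence before each start was read for CG dinucleotides. RefSeq promoter windows (GRCm38.p6) were found for 8 of the 9 genes, in 11 windows, and all 11 matched the mm9 genome exactly and once. Over the 250 bases before a start, the median of all 32851 windows was a GC content of 52.4% and a ratio of observed to expected CG of 0.373, and 92.1% held at least 1 CG on either strand, as CG reads the same on both. A ratio over 0.6 with a GC content of at least 50% was reached by 31.0% of all windows and by 3 of the 11 windows here, those of Ptger3, of the downstream start of Cldn10 and of a start inside Egf. These 250-base values are not island calls. The windows below are shown to set CG-poor windows, with 0 CG in Umod and at the upstream Egf start, beside the CG-rich window of Ptger3. Bases that the annotation counts as exon were left off. Capitals mark CG.

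Slc12a1 (mm9 chr2:124978086-124978240, + strand): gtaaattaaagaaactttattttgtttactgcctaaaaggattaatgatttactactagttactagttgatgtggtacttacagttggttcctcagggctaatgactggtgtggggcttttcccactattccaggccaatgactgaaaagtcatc
Egf (mm9 chr3:129458241-129458490, - strand): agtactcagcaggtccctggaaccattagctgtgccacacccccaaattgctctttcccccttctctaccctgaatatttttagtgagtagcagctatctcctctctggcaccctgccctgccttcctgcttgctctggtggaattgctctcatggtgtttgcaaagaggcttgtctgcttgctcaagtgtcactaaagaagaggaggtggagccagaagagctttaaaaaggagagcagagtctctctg
Umod (mm9 chr7:126622777-126623026, - strand): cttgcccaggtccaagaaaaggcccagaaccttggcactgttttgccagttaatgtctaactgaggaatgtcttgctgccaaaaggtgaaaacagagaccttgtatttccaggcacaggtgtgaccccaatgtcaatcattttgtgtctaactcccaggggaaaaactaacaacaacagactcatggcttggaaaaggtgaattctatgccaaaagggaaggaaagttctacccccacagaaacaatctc
Cldn10, upstream start (mm9 chr14:119186843-119187092, + strand): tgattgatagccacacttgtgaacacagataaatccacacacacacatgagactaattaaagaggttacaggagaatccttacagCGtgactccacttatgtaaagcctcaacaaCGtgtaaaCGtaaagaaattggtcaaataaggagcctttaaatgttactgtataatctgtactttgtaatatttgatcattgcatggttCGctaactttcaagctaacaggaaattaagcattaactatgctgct
Cldn16 (mm9 chr16:26462971-26463220, + strand): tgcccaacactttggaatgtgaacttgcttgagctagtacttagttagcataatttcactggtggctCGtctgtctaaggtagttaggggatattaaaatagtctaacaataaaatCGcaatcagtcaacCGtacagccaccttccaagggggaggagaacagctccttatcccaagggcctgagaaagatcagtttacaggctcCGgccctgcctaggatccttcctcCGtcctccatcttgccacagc
Ptger3 (mm9 chr3:157229590-157229839, + strand): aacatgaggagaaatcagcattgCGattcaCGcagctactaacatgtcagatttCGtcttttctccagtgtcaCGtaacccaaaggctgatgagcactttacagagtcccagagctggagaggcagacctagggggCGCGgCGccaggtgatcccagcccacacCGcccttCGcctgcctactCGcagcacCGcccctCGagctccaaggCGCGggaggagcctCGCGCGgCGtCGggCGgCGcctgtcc

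The windows of Umod and of the upstream Egf start held 0 CG in 250 bases, and the Casr window held 1. The windows of Slc12a1 and of the upstream Cldn10 start held 4 each, those of Slc12a1 all within the 95 exon bases left off above, that of Cldn16 held 5, and that of Ptger3 held 21. Cldn10 has a second start 67.1 kb downstream, whose window held 22 CG at a GC content of 72.4%. The tables give 1 value per symbol, so transcripts from the 2 starts of Cldn10, or of Egf, could not be separated.

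Lbr itself had 314 to 495 normalized counts in the 5 LBR-null libraries and 381 and 416 in the WT libraries, so its RNA level is no check of the genotypes. No sex is stated for any animal. Xist, which is expressed from the inactive X chromosome, stood at 5352 to 10163 normalized counts in mice 4001 and 4007 but at 65.3 in mouse 4002 and 31.7 to 39.4 in the WT mouse. The Y-linked gene Ddx3y stood at 149 and 133 in mouse 4001, 49.4 and 39.2 in mouse 4007, 1516 in mouse 4002 and 1269 to 1299 in WT. By these genes mice 4001 and 4007 have the pattern of females, though with some Ddx3y in mouse 4001, and mouse 4002 and the WT mouse that of males. Where mice 4001 and 4007 are compared with the WT mouse, sex and genotype therefore cannot be told apart. Mouse 4002 is the LBR-null animal nearest to the WT mouse by these genes, and its values are given separately below. The 2 libraries of a mouse were close, with a median difference over genes with a mean of at least 100 of 1.12-fold in mouse 4001, 1.06-fold in 4007 and 1.04-fold in WT. Such genes differed at least 1.5-fold between libraries in 3.04% of cases in mouse 4001 and in 0.245% and 0.439% in mice 4007 and WT. Each mouse therefore entered as the mean of its libraries, and n counts mice.

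Slc12a1, Cldn10 and Egf were higher in all 5 LBR-null libraries than in both WT libraries, and Cldn16 was lower in all 5. The other 5 genes overlapped. Over the 17283 genes tested, those with a mean of at least 5 normalized counts, 25.5% had all 5 LBR-null libraries above both WT libraries and 25.7% had all 5 below, so 3 of 9 above and 1 of 9 below is near the share of genes in general. The mean over LBR-null mice differed at least 2-fold from WT for 0 of 9 genes in either direction, against 14.5% of tested genes 2-fold higher and 7.04% 2-fold lower. None of the 9 passed the test across all genes, limma on log2(normalized count + 1) with Benjamini-Hochberg adjustment, at an adjusted p under 0.05 and a 2-fold change, and this test called 0% of all 17283 genes. At an unadjusted p under 0.05 limma had 0 of the 9 and 3243 genes in all. On reads recovered from the normalized counts, edgeR called 0 of 9 and 0.162% of genes, and DESeq2 called 0 of 9 and 6.59% of genes.

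**Figure D1:**
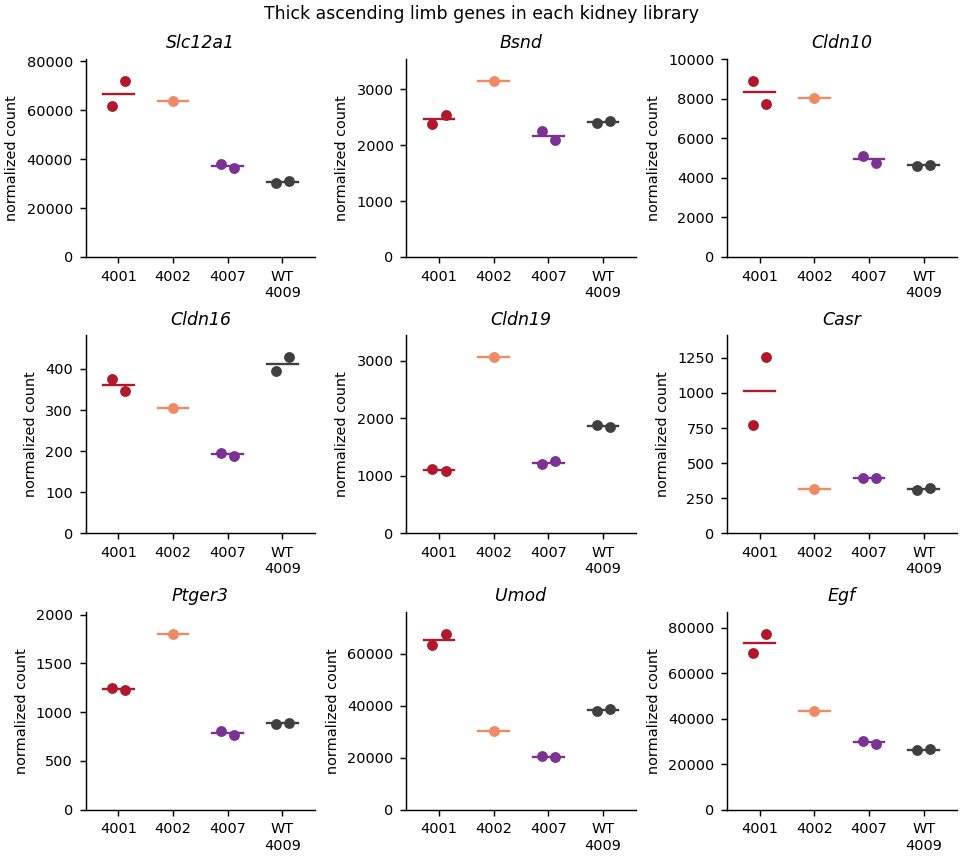
Normalized counts of the 9 genes in each library; points are libraries, short lines are means of a mouse, and every axis starts at 0. Slc12a1, Cldn10 and Egf lie above both WT points in all 5 LBR-null libraries, with the highest mean in mouse 4001, and mouse 4007 lies nearest to WT for these 3 genes.

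The LBR-null mice differed widely. In mouse 4001, 7 of 9 genes were above WT and the median log2 difference was 0.77; in mouse 4002 it was again 7 of 9, with a median of 0.71; in mouse 4007 it was 4 of 9, with a median of -0.16. Over all tested genes the medians were 0.01 in each mouse, with 50.7%, 51% and 50.6% of genes above WT. A 2-fold higher level was reached by 3 genes in mouse 4001, by 2 in mouse 4002 and by 0 in mouse 4007, against 15.8%, 11.8% and 15.0% of all tested genes. In mouse 4007, 1 gene was 2-fold lower, against 9.52% of all tested genes. Slc12a1, Cldn10, Casr and Egf were above WT in all 3 mice and Cldn16 below in all 3, while 33.7% of tested genes were above and 32.3% below in all 3. The 9 genes together took 0.477% to 1.03% of the reads of an LBR-null library and 0.507% to 0.515% of those of a WT library.

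**Figure D2:**
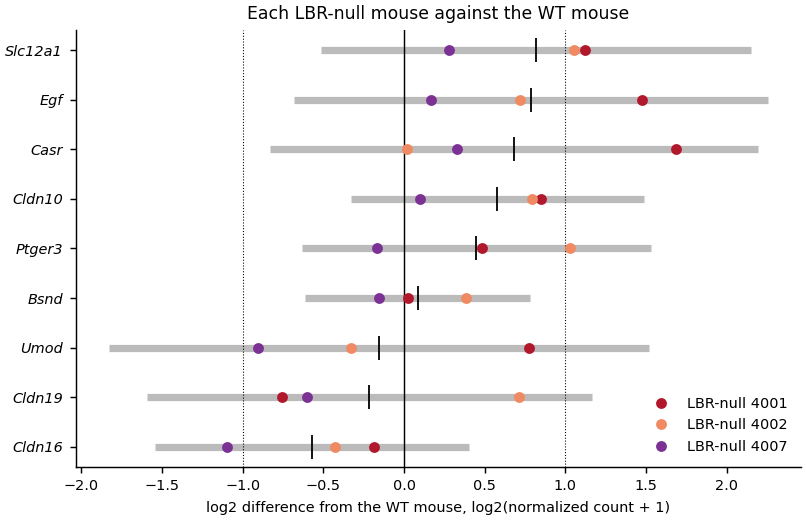
Log2 difference of each LBR-null mouse from the WT mouse for the 9 genes; points are mice, black ticks are the means, grey bars are 95% confidence intervals from limma, and dotted lines mark a 2-fold difference. Every grey bar crosses 0, and mouse 4001 ranges from -0.76 for Cldn19 to 1.69 for Casr.

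Slc12a1 (chr2:124978241-125055738, + strand of mm9) had the largest limma log2 fold change of the 9 genes, while by the ratio of group means Egf (1.85-fold) and Casr (1.83-fold) lay slightly above it (1.82-fold). Its normalized count was 61724 and 71971 in mouse 4001, 63792 in mouse 4002, 38176 and 36536 in mouse 4007, and 30436 and 31106 in the WT mouse. All LBR-null libraries were above WT, with mice 4001 and 4002 at 2.17-fold and 2.07-fold of the WT mean and mouse 4007 at 1.21-fold. The mean was 55999 ± 16217 (SD, n = 3 LBR-null mice) against 30771 in WT. The limma log2 fold change was 0.82 (SE 0.55, 95% interval -0.51 to 2.15, adjusted p = 0.475), so the interval crossed 0 and the difference did not pass the test.

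Bsnd (chr4:106156061-106164888, - strand), the barttin gene, had the limma log2 fold change nearest to 0, while by the ratio of group means Umod (1.01-fold) and Cldn19 (0.963-fold) lay nearer to 1 than Bsnd (1.07-fold). Its libraries stood at 2380 and 2543 in mouse 4001, 3148 in mouse 4002, 2251 and 2090 in mouse 4007, and 2403 and 2431 in WT. The WT values lay inside the LBR-null range. Its log2 fold change was 0.08 (SE 0.29, 95% interval -0.61 to 0.78, limma adjusted p = 0.909).

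None of the 3 claudin genes passed the test, and the difference between them was not tested. Cldn10 (chr14:119187093-119274711, + strand), with 1 value over both of its starts, stood at 8897 and 7745 in mouse 4001, 8035 in mouse 4002, 5125 and 4771 in mouse 4007, and 4604 and 4654 in WT. Mouse 4007 was above WT by 1.07-fold, mouse 4001 by 1.80-fold and mouse 4002 by 1.74-fold. This gave a log2 fold change of 0.58 (SE 0.38, 95% interval -0.33 to 1.49, limma adjusted p = 0.458).

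Cldn16 (chr16:26463221-26482851, + strand), whose product takes part in magnesium and calcium passage, was the 1 gene below WT in all libraries. It stood at 377 and 347 in mouse 4001, 306 in mouse 4002, 197 and 188 in mouse 4007, and 396 and 428 in WT. Mouse 4007 was lowest, with the WT mean 2.14-fold higher, and mouse 4001 came close to WT, which was 1.14-fold higher. This gave a log2 fold change of -0.57 (SE 0.40, 95% interval -1.54 to 0.40, limma adjusted p = 0.496).

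Cldn19 (chr4:118928019-118935043, + strand), the partner of Cldn16, was set apart by 1 mouse. Mouse 4002 had 3058, 1.64-fold of WT, while mouse 4001 had 1125 and 1078, mouse 4007 had 1204 and 1251, and WT had 1885 and 1843. LBR-null mice thus lay on both sides of WT, which was 1.69-fold above mouse 4001 and 1.52-fold above mouse 4007. The log2 fold change was -0.22 (SE 0.57, limma adjusted p = 0.877) and became 0.06 without mouse 4001.

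Casr (chr16:36493782-36562227, - strand), the calcium-sensing receptor gene, had 775 and 1253 in mouse 4001, 318 in mouse 4002, 395 and 396 in mouse 4007, and 306 and 322 in WT. Mouse 4001 was 3.23-fold of WT and mouse 4002 1.01-fold, and the libraries of mouse 4001 differed from each other by 1.62-fold, more than for the other 8 genes (1.02-fold to 1.17-fold). The log2 fold change was 0.68 (SE 0.63, 95% interval -0.83 to 2.19, limma adjusted p = 0.608). Without mouse 4002, or with only the second library of each mouse that had one, Casr was the single gene of the 9 whose mean was at least 2-fold higher than WT.

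Ptger3 (chr3:157229856-157307722, + strand), the EP3 receptor gene, stood at 1250 and 1226 in mouse 4001, 1802 in mouse 4002, 807 and 768 in mouse 4007, and 877 and 891 in WT. Mouse 4002 was 2.04-fold of WT, and mouse 4007 was below both WT libraries. For Ptger3 the log2 fold change was 0.45 (SE 0.45, 95% interval -0.63 to 1.53, limma adjusted p = 0.638). Casr and Ptger3 thus had their highest levels in different mice.

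The genes of the secreted products, Umod and Egf, shared their order of mice but not their place relative to WT. Umod (chr7:126606380-126622769, - strand) stood at 63384 and 67746 in mouse 4001, 30513 in mouse 4002, 20771 and 20181 in mouse 4007, and 38008 and 38781 in WT. Mouse 4001 was 1.71-fold of WT, and WT was 1.26-fold above mouse 4002 and 1.88-fold above mouse 4007. The log2 fold change was -0.16 (SE 0.69, 95% interval -1.83 to 1.52, limma adjusted p = 0.931) and became 0.22 without mouse 4007.

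Egf (chr3:129380493-129458240, - strand) had 68998 and 77392 in mouse 4001, 43348 in mouse 4002, 30336 and 28979 in mouse 4007, and 26217 and 26512 in WT. All LBR-null libraries were above WT, by 2.78-fold in mouse 4001, 1.64-fold in mouse 4002 and 1.12-fold in mouse 4007. The mean was 48734 ± 22263 (SD, n = 3 LBR-null mice) against 26365, a log2 fold change of 0.79 (SE 0.61, 95% interval -0.68 to 2.25, limma adjusted p = 0.531). Without mouse 4007 the means of Slc12a1, Casr and Egf were at least 2-fold higher than WT, so the count of 0 genes past 2-fold changes with that animal, as it does with mouse 4002 for Casr.

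Ratios of 2 genes within a library do not depend on the size factor. Of the 36 pairs among the 9 genes, 18 had ratios that did not overlap between genotypes, which is no more than the 53.0% of all pairs of genes with a mean of at least 100. A few pairs are described here and were chosen after their values were seen. The ratio of Cldn10 to Cldn16 was 23.6 and 22.3 in mouse 4001, 26.2 in mouse 4002, 26.1 and 25.4 in mouse 4007, and 11.6 and 10.9 in WT. It was thus nearly equal in the LBR-null mice, whose levels of each gene differed. The ratio of Slc12a1 to Bsnd was 17.0 to 28.3 in LBR-null libraries and 12.7 and 12.8 in WT. The ratio of Slc12a1 to Cldn10 was 6.94 to 9.29 in LBR-null libraries and 6.61 and 6.68 in WT. The ratio of Umod to Egf was 0.685 to 0.919 in LBR-null libraries against 1.45 and 1.46 in WT, and that of Slc12a1 to Umod was 0.974 to 2.09 against 0.801 and 0.802.

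**Figure D3:**
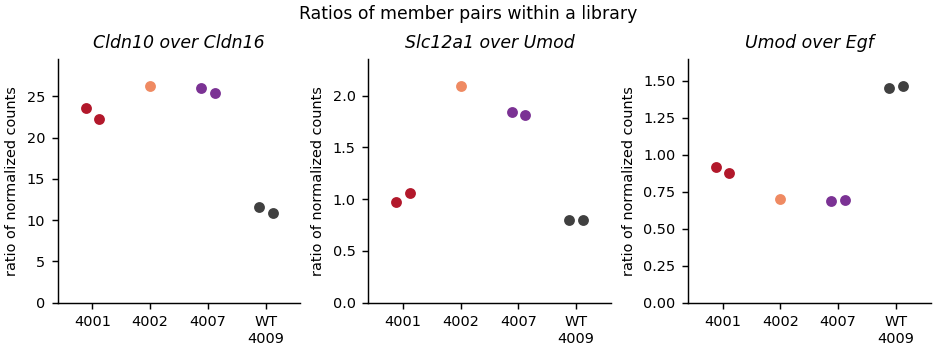
Ratios of normalized counts of 3 pairs of genes within each library; points are libraries and axes start at 0. The ratio of Cldn10 to Cldn16 lies between 22.3 and 26.2 in LBR-null libraries and at 10.9 and 11.6 in WT, and the ratio of Umod to Egf is below both WT points in every LBR-null library.

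The genes whose 3 differences from WT were most like those of Slc12a1 were sought among 11830 other genes with a mean of at least 100, by the root mean square distance on the log2 scale. The 5 nearest were Slc5a3 (0.11), Ptgds (0.11), Corin (0.12), Slc14a2 (0.18) and Ank2 (0.19). Slc5a3 encodes a myo-inositol transporter, Ptgds a prostaglandin D2 synthase, Corin a protease that activates natriuretic peptides, and Slc14a2 the urea transporter of the inner medulla and thin limb. Slc14a2 had log2 differences of 0.98, 0.96 and 0.01 in mice 4001, 4002 and 4007. Of the other 8 genes of the thick ascending limb, Cldn10 came 12th (0.24) and Egf 36th (0.29), and Umod came 6917th (1.07). With 3 mice such distances describe these animals only.

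The other genes of the pathway were described by lists, and none of their genes passed the limma test. Among 10 further genes of salt transport, the median log2 fold change was 0.28, against 0.01 over all genes tested, with 3 genes above WT in all libraries and 3 below. Of all genes tested, 25.5% were above WT in all libraries and 25.7% below. Fxyd2, a regulatory subunit of the sodium pump, had a log2 fold change of -0.71 (SE 0.53) and was below WT in all 5 LBR-null libraries.

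Among 12 genes of kinases and trafficking of NKCC2, the median was 0.27, with 6 above WT in all libraries and 0 below (25.5% and 25.7% of all genes tested). Wnk3, a kinase of the cascade that activates NKCC2, had a log2 fold change of 1.48 (SE 0.48) at a low level of 29.6 normalized counts in WT. Stk39, the kinase that phosphorylates the cotransporter, had 0.50 (SE 0.25), Klhl3, an adaptor for the degradation of WNK kinases, 0.93 (SE 0.46), and Ppp1r1a, a phosphatase inhibitor, 0.49 (SE 0.34). Among 12 other claudins and junction proteins, the median was 0.22, with 5 above and 1 below (25.5% and 25.7% of all genes tested). Cldn3 stood at 709 to 808 in the LBR-null libraries and 295 and 317 in WT, a log2 fold change of 1.29 (SE 0.24, limma adjusted p = 0.097). Ocln (occludin) had 1.13 (SE 0.48), Cldn8, a claudin of the distal nephron and collecting duct, 0.89 (SE 0.40), and Cldn11 -0.66 (SE 1.38). For Cldn11 mouse 4001 was low, at 32.2 and 22.2 against 295 to 370 in the other LBR-null libraries and 234 and 229 in WT, and without that mouse the value was 0.53. DESeq2, which called 6.59% of all genes, called Cldn3 in this list, and limma did not.

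Receptors and prostaglandin and cAMP signalling, 11 genes, had a median of -0.01, with 0 above and 3 below (25.5% and 25.7% of all genes tested). Pth1r, the parathyroid hormone receptor, had 4905 to 6123 in the LBR-null libraries and 10351 and 10252 in WT, a log2 fold change of -0.90 (SE 0.27, limma adjusted p = 0.156). Ptger1, the EP1 receptor, had -0.92 (SE 0.42), Avpr2, the vasopressin receptor, -0.59 (SE 0.56), and Ptgs2 -0.34 (SE 0.53). In the EGF family, 8 of 10 genes were tested, all 8 with log2 fold changes above 0 (50.5% of all genes tested), a median of 0.54, and 5 above WT in all libraries (25.5% of all genes tested). In this list limma called 0 genes and DESeq2 called 2, Erbb3 and Nrg1, against 0% and 6.59% of all genes. Nrg1, an EGF-like ligand, had 1.52 (SE 0.49), its receptor genes Erbb3 and Erbb4 had 1.45 (SE 0.49) and 1.36 (SE 0.49), and Btc had 0.60 (SE 0.46). Erbb4 was low, at 30.8 normalized counts in WT.

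The list of 8 transcription factors and Hpn, the protease that releases uromodulin, had a median of -0.03. Esrrb, an orphan nuclear receptor, stood apart in it, with 3813 and 4165 in mouse 4001, 3793 in mouse 4002, 3685 and 3710 in mouse 4007, and 1040 and 983 in WT. Its log2 fold change of 1.92 (SE 0.23, limma adjusted p = 0.070) was nearly the same in each LBR-null mouse, and DESeq2 called this gene while limma did not. Its relative Esrrg had -0.29 (SE 0.28), Pou3f3 -0.43 (SE 0.33) and Irx3 -0.38 (SE 0.27).

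**Figure D4:**
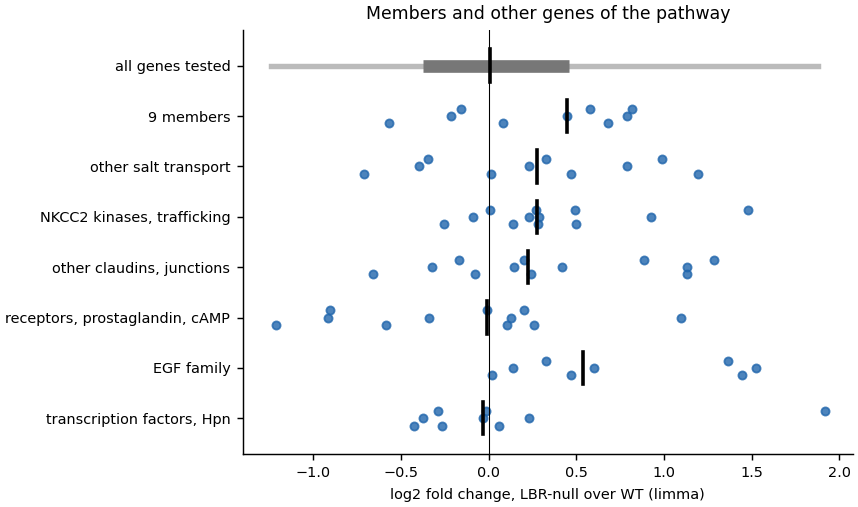
Limma log2 fold change, LBR-null over WT, of the 9 genes and of the tested genes of 6 further lists; points are genes and black ticks are medians. The top row gives all 17283 genes tested, with a dark bar from the 25th to the 75th percentile (-0.37 to 0.46) and a light bar from the 5th to the 95th (-1.24 to 1.88).

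Levels of markers of other kidney cells are given beside these values, and their part in them was not tested. limma called 0 genes of any marker list, with 8 proximal tubule, 5 neutrophil, 2 thin limb, 2 distal convoluted tubule, 2 kidney injury, 1 stroma and 1 macrophage marker at an unadjusted p under 0.05. Over all genes, 3243 of the 17283 tested were under that limit in limma. DESeq2 called 6 of 10 proximal tubule markers (5 lower and 1 higher), 4 of 5 neutrophil markers and 2 of 4 thin limb markers (all higher), 2 of 5 distal convoluted tubule markers (1 lower and 1 higher) and 1 of 4 stroma markers (lower). edgeR called 1 marker, Slc22a6, as lower. Over all genes, DESeq2 called 6.59% and edgeR 0.162%. The summed level of 10 proximal tubule markers was 126778 to 279925 normalized counts in LBR-null libraries and 489402 to 507525 in WT. Most of the WT sum was Kap, which had 57458 to 205800 in LBR-null libraries and 347003 and 367289 in WT. Of the 10 markers, 8 were below WT in all libraries and 2 above, against 25.7% and 25.5% of all genes tested. Slc22a6, an organic anion transporter, had 292 to 552 against 7282 in the WT mouse, a log2 fold change of -4.19 (SE 0.36, limma adjusted p = 0.058). Slc22a8, Slc5a2 and Slc7a13 had -2.34 (SE 0.43), -2.02 (SE 0.66) and -2.82 (SE 1.07). The 4 thin limb markers summed to 34227 to 56203 against 25220 to 25568, with 3 of 4 above WT in all libraries (25.5% of all genes tested). Aqp1, also in the proximal tubule list, was the largest part, at 22028 to 37850 against 16932 and 17126. Of the 4 markers, Bst1 had a log2 fold change of 1.33 (SE 0.36), Aqp1 0.65 (SE 0.46) and Slc14a2 0.65 (SE 0.45). The thin limb sum was highest in mouse 4001 and lowest in mouse 4007 among LBR-null mice, the same order as for the mean levels of Slc12a1 and Egf.

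The 5 distal convoluted tubule markers summed to 14402 to 26836 against 26176 to 26455, with Pvalb at -2.82 (SE 0.60), Trpm6 at 1.67 (SE 0.24) and Calb1 at -0.74 (SE 0.52). The 6 principal cell markers overlapped WT, at 31537 to 55607 against 35477 to 35754, with Aqp2 at 0.41 (SE 0.46), Aqp3 at 0.60 (SE 0.45), Scnn1b at 0.51 (SE 0.25) and Hsd11b2 at -0.49 (SE 0.49). The 5 intercalated cell markers summed to 9831 to 11255 against 11459 to 11615, with Atp6v1g3 at 0.29 (SE 0.26), Slc4a1 at -0.50 (SE 0.40), Slc26a4 at -0.45 (SE 0.29) and Foxi1 at -0.64 (SE 0.36).

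Podocyte markers, 4 genes, were below WT in all libraries (25.7% of all genes tested) and lowest in mouse 4001, the mouse with the highest Umod, Egf and Casr. Nphs1, a protein of the filtration slit, had 350 and 334 in mouse 4001, 1252 in mouse 4002, 1137 and 1213 in mouse 4007, and 1354 and 1428 in WT. Synpo had -0.68 (SE 0.44) and Podxl -0.55 (SE 0.40). The 4 stroma markers summed to 8386 to 21012 against 23139 to 23687, with Col1a1 at -2.58 (SE 0.46), Col3a1 at -1.98 (SE 0.97), Dcn at 0.86 (SE 0.60) and Pdgfrb at -0.46 (SE 0.36). The 5 endothelial markers summed to 11129 to 14986 against 15193 to 15209, with Cdh5 at -0.53 (SE 0.25), Ehd3 at -0.63 (SE 0.80), Emcn at -0.27 (SE 0.42) and Pecam1 at 0.04 (SE 0.27). Ehd3 was low in mouse 4001, at 474 and 510 against 1950 to 2134 in the other LBR-null libraries and 1953 and 1991 in WT. Without that mouse the values of Ehd3, Emcn and Pecam1 turned to 0.056, 0.037 and -0.0435.

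The 5 macrophage markers were below WT in all libraries (25.7% of all genes tested), with C1qb at -0.85 (SE 0.30), Adgre1 at -0.80 (SE 0.45), C1qa at -0.71 (SE 0.31) and Cd68 at -0.57 (SE 0.33). The 5 neutrophil markers summed to 362 to 2370 against 59.1 to 63.3 and were above WT in all libraries (25.5% of all genes tested). S100a9 had 136 to 951 normalized counts against 8.23 in the WT mouse, S100a8 had 160 to 924 against 50.1, and Ngp had 17.2 to 193 against 2.09. Retnlg and Mpo were the markers listed at 0 in at least 1 library. The 5 kidney injury genes summed to 9154 to 11968 against 8476 to 8544, with Lcn2 at 1.09 (SE 0.48), Krt18 at 0.86 (SE 0.26), Krt8 at -0.12 (SE 0.27) and Vcam1 at -1.05 (SE 0.36). Krt8 and Krt18 made up most of this sum.

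**Figure D5:**
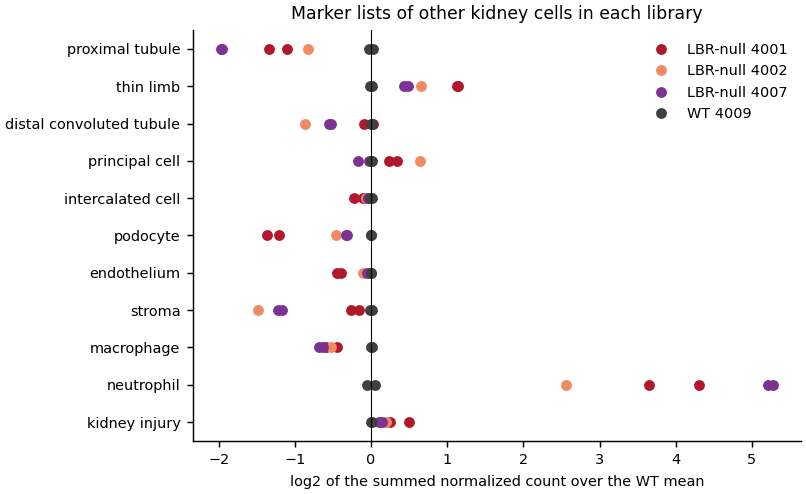
Summed normalized count of each marker list in each library, as log2 over the mean of the WT libraries, with points for libraries. A sum is weighted to its most abundant genes, such as Kap in the proximal tubule list. In all 5 LBR-null libraries the proximal tubule, intercalated cell, podocyte, endothelium, stroma and macrophage sums are below WT and the thin limb, neutrophil and kidney injury sums above, and mouse 4001 is highest for the thin limb and lowest for podocytes.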

How the data were processed

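Kidney RNA-seq was analysed for 3 LBR-null mice and 1 WT mouse in 7 libraries. The deposited values are a signal for each gene symbol that the authors made from read counts: after alignment with STAR 2.6.0 to mm9, counts were scaled by the size factors of DESeq2 1.25.1. The counting program, the gene annotation and strandedness are not given in the sources used here. All values (100.0%) came out as whole multiples of 1 read, within 0.01 read, and the reads were recovered from them. The libraries held 20694016 to 26333284 reads on genes, and 1 read equalled 0.787 to 1.15 normalized counts; 2860 genes were at 0 in every library.

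Repeat libraries were averaged, and mouse means were compared on a scale of log2(normalized count + 1). The test was limma 3.58.1 in R 4.3.3, with a trended eBayes prior, fitted to the 17283 genes whose mean was 5 or more and adjusted by Benjamini-Hochberg over all of them. A call needed an adjusted p under 0.05 and a 2-fold change. This treats the single WT mouse as having the same variance as the LBR-null group. A 2-fold difference of group averages, a criterion the study used, was counted too. Recovered reads, summed per mouse, went to edgeR 4.0.16 (quasi-likelihood) and DESeq2 1.42.0 as alternatives; others were the scaling, the pseudocount, the filter, single libraries and leaving out each LBR-null mouse. Exon lengths and gene positions are from GENCODE M1 (mm9), which may not be the annotation used for counting, and promoter windows are from RefSeq. Scripts were tested on simulated data.

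All 9 genes are named. From each other list, up to 4 genes with a mean of at least 50 and the largest change were named; further genes are Lbr, Xist, Ddx3y and the 5 nearest to the gene of the 9 with the largest change. A few genes that this rule names are not reported here. The genes and lists were chosen with earlier results of these data known. Nothing in the labels says how the 2 libraries of a mouse were made, so they may be technical repeats.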

Additional observations from a re-analysis of the deposited data

Results flagged for a closer look

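In 82 named genes and ratios, the 5 LBR-null libraries were searched for one that stood apart from the others by more than Dixon's 95% critical value. Of the 82, 11 were flagged. Chance flags about 1 in 20 groups of independent values, but libraries of 1 mouse are not independent, so the 11 flags cannot be set against that rate. Most of the flags fell on mouse 4002, the LBR-null mouse with 1 library. Of the 9 thick ascending limb genes, Cldn19 was flagged, at 3058 normalized counts in mouse 4002 against 1078 to 1251 in the other LBR-null libraries. Mouse 4002 was also highest for Avpr2, the vasopressin receptor (1078 against 400.2 to 451), for Pou3f3, a transcription factor of the limb (3501 against 2089 to 2365), for the proximal tubule genes Slc7a13 (917 against 94.1 to 217) and Slc22a8 (3669 against 1665 to 2209), and for Slc4a1 of intercalated cells (1786 against 852 to 1110). It was highest too for the Y-linked genes Kdm5d (526 against 6.52 to 37.9), Uty (424 against 5.47 to 42.5) and Ddx3y (1516 against 39.2 to 149). The second library of mouse 4001 was highest for Erbb4 (175 against 62.9 to 68.8) and Esrrb (4165 against 3685 to 3813).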

How the results depend on the processing

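Over 14 alternatives each, the log2 fold changes of Slc12a1 (0.67 to 1.09), Cldn10 (0.45 to 0.82), Casr (0.02 to 1.01), Ptger3 (0.16 to 1.03), Egf (0.44 to 1.095) and Cldn16 (-0.76 to -0.31) kept their direction, and none of the 9 genes had an adjusted p under 0.05 in limma, edgeR or DESeq2. Leaving out a mouse turned the direction of Bsnd (without 4002; range -0.064 to 0.20), of Umod (without 4007; -0.62 to 0.22) and, without 4001, of Cldn19 (-0.68 to 0.056), Cldn11 (-1.33 to 0.53), Ehd3 (-1.001 to 0.056), Emcn (-0.45 to 0.037) and Pecam1 (-0.0435 to 0.13). The number of genes of the 9 at least 2-fold higher went from 0 to between 0 and 3 when an LBR-null mouse was left out, to 1 with the second library of each mouse, and to 2 in mouse 4002 alone. The number below both WT libraries, 1, lay between 1 and 2 without a mouse and was 2 in mouse 4002 alone, where the number above was 6 instead of 3. The comparison with mouse 4002 alone was chosen after seeing the data and has no test. Of 910 values for 70 other named genes, 49 came under an adjusted p of 0.05, in DESeq2 (17), in edgeR (1) and in limma without mouse 4001 (15) or 4002 (16). Scaling by TMM or equal totals moved the median of all genes by -0.03 and -0.003. The cause of these differences was not tested. No paired analysis was possible because equal replicate numbers mark repeat libraries of 1 mouse and do not link mice across genotypes. With 1 WT mouse, differences within the spread between LBR-null mice cannot be resolved, whatever the depth.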
